A study of Rattus norvegicus with 9 samples.

Results

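Voltage-gated sodium channels (Nav) and voltage-gated calcium channels (Cav) turn a change in membrane voltage into an inward current of sodium or calcium. Their genes were taken from the rat table by name, as every entry named Scn with a number and a or b, or Cacna, Cacnb or Cacng, with a mean count over the 9 libraries of at least 10. The rule found 34 genes of the 32623 entries. They were 9 Cav α1, 3 α2δ, 4 Cav β, 7 γ, 7 Nav α and 4 Nav β genes. A further 6 entries had a matching name and a mean count under 10. They were Cacna1s, Cacna2d4, Cacng1, Scn4a, Scn10a and Scn11a, with mean counts from 0 to 7.

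Polyadenylated RNA was sequenced from primary cortical neurons of wild-type Wistar rat embryos taken at embryonic day 16 to 18. The neurons grew on glass coated with conductive indium tin oxide (ITO). In the alternating current stimulation (ACS) group, 3 libraries came from cultures given 3 µA at 20 Hz for 20 min a day over 7 days. In the direct current stimulation (DCS, called DES in the labels) group, 3 libraries came from cultures given 3 µA for the same daily time and number of days, and the labels list 20 Hz for this group too, whereas the methods give that frequency for ACS. The control group was 3 libraries of unstimulated cultures. Cells are given as day 7 in vitro in the labels, although cultures were kept until day 14 by the growth protocol. No source used here states whether replicate libraries are separate cultures, and every p-value therefore rests on the variation among these 9 libraries, which may be technical.

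A Nav channel is built from a pore-forming α subunit, which carries the sodium current of the action potential, and β subunits, which shape its gating and act as adhesion molecules. A Cav channel has a pore-forming α1 subunit that sets its class. L-type channels open at strong depolarization and signal to the nucleus, P/Q-, N- and R-type channels drive transmitter release, and T-type channels open near the resting potential and support bursting. The α2δ and β subunits bring α1 to the membrane, and most γ genes of the brain encode transmembrane AMPA receptor regulatory proteins (TARPs), which traffic glutamate receptors rather than calcium channels.

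The counts summed to between 49039412 and 68690760 per library, and the libraries resembled each other with r between 0.969 and 0.979 on log2(FPKM + 0.1). The cultures held the markers of cortical neurons. The summed FPKM of Tubb3, Map2, Rbfox3, Snap25 and Stmn2 was 2050 to 2160 in ACS, 1950 to 2130 in DCS and 1910 to 2020 in control libraries, and 1 of these 5 genes (Rbfox3) was higher under ACS than in control. The 7 markers of excitatory cortical neurons summed to 325 to 334 FPKM in ACS, 316 to 344 in DCS and 321 to 332 in control libraries, with 2 (Emx1 and Cux2) higher under ACS than in control. Of these 7, 5 lay above 0 and 2 below for ACS against control. The 7 markers of GABAergic neurons summed to 254 to 265 FPKM in ACS, 248 to 271 in DCS and 222 to 265 in control libraries, with none called and 6 above 0 for ACS against control. Glial and progenitor RNA was also present. The astrocyte markers summed to 157 to 239 FPKM in ACS, 203 to 205 in DCS and 207 to 219 in control libraries, with 1 of 6 (Gfap) higher under ACS. Of these 6, 4 lay above 0 and 2 below for ACS against control. Single libraries stood out, as Slc1a3 had 53.5, 114.7 and 124.8 FPKM in ACS libraries 1, 2 and 3. Aqp4 ranged from 3.14 FPKM in control library 2 to 20.8 in ACS library 3. The oligodendrocyte lineage summed to 187 to 204 FPKM in ACS, 191 to 218 in DCS and 188 to 217 in control libraries, with none of 8 called against control under either current. The 6 microglial markers summed to 39.9 to 42.7 FPKM in ACS, 43.6 to 44.4 in DCS and 41.7 to 43.6 in control libraries, with none called. The progenitor markers summed to 219 to 234 FPKM in ACS, 250 to 272 in DCS and 250 to 262 in control libraries, with 3 of 6 (Hes5, Mki67 and Vim) lower under ACS than in control. Of the 6 progenitor markers, 4 lay below 0 and 2 above for ACS against control. RNA was extracted from whole cultures, so fewer cells of a type and less RNA per cell cannot be told apart, and the part of these marker differences in the channel results was not tested.

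Levels are compared between genes in FPKM (fragments per kilobase of exon, scaled to library depth), averaged over the 9 libraries. The γ genes had the highest level, led by Cacng4 (the TARP γ-4) at 94.0 FPKM and Cacng7 at 61.8. Cacnb3 stood at 89.0 and Cacna2d1, the most abundant α2δ subunit, at 49.6. The pore-forming subunits were spread more evenly. The 8 Cav α1 genes other than Cacna1f lay between 5.89 (Cacna1i) and 14.8 FPKM (Cacna1h). Among the Nav α genes, Scn2a had 19.9, Scn3a 17.97, Scn8a 16.2 and Scn1a 3.98 FPKM. Scn3b was the main β subunit of sodium channels at 35.2 FPKM. Among those at the bottom were genes known from peripheral nerve, retina or muscle, with Scn9a at 0.419, Scn7a at 0.182, Cacng6 at 0.0883 and Cacna1f at 0.0433 FPKM.

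**Figure D1:**
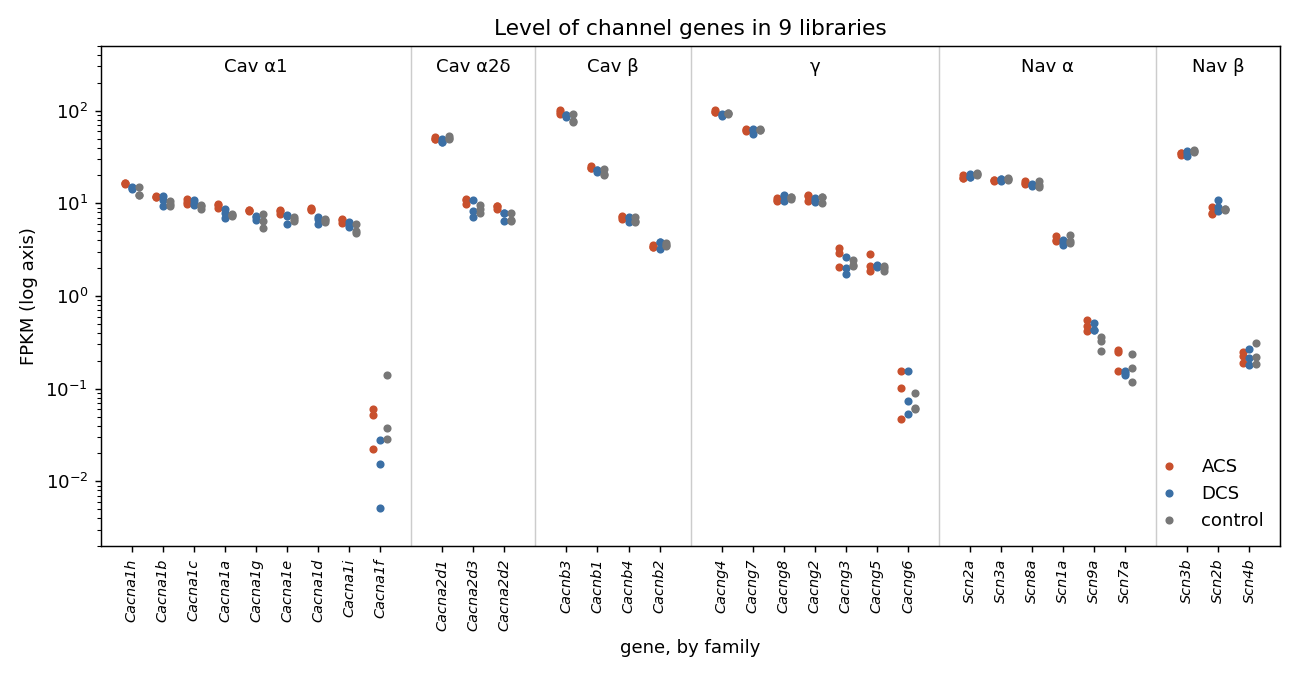
FPKM (log axis) of the channel genes, all but 2 of the 34, in each of 9 libraries, ordered by family and by mean level, with ACS, DCS and control libraries side by side as points. Within families, levels run from 94.0 FPKM (Cacng4) to 0.0883 FPKM (Cacng6) among the γ genes and from 14.8 (Cacna1h) to 0.0433 (Cacna1f) among the Cav α1 genes.

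The main question of the design was what each current changed relative to unstimulated neurons. Under ACS, 3 of the 9 calcium channel pore genes were called higher than in control, and none of the 7 sodium channel pore genes passed the test. Relative to control, ACS had 3 of the 34 genes higher and 0 lower at an adjusted p under 0.05 (edgeR's quasi-likelihood test with Benjamini-Hochberg adjustment over 16284 tested genes). This is 8.82% of the genes called higher, against 2.83% of all tested genes called higher and 1.33% called lower. All 3 were Cav α1 genes, namely Cacna1d, Cacna1a and Cacna1h. In 14 of the 34 genes all 3 ACS libraries lay above all 3 control libraries, which is 41.2%, against 14% of all tested genes, and in 1 gene (Scn3b) they lay below, against 13% of all tested genes. At an unadjusted p under 0.05, 13 of the 34 genes were higher and 0 lower, against 10.8% of all tested genes higher and 10% lower. The median log2 fold change was 0.15 over the 34 genes and -0.0029 over all tested genes.

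The 3 calls depended on the test and on single libraries. DESeq2 called 12 of the 34 genes, among them 8 Cav α1 genes, Cacna2d2, Cacnb1, Cacnb3 and Scn9a, and it called 5.77% of all tested genes higher, more than edgeR did. Limma on log2(FPKM + 0.1) called Cacna1d only and 2.12% of all tested genes higher. The call of Cacna1d held when any library but control library 1 was left out, and without that library its adjusted p was 0.0532. Cacna1a stayed called only without DCS library 1 or DCS library 3, with an adjusted p of up to 0.157 without any other library. Cacna1h stayed called without control library 3, DCS library 1 or DCS library 3, with an adjusted p of up to 0.125 without any other. Without control library 1 the count fell to 0, it was 1 without ACS library 1, 2 or 3, control library 2 or DCS library 2, and it was 6 without DCS library 3 and 7 without control library 3. The shares of all tested genes called in these fits are not given here, so the counts only describe how stable the calls were. The direction of the 8 Cav α1 genes other than Cacna1f did not depend on these choices. All 8 stayed above 0, with a family median log2 fold change of 0.26 to 0.37 in every alternative and with every library left out.

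The Cav α1 family held all 3 calls and 8 of the 14 genes without overlap between ACS and control. In 8 of its 9 genes the ACS libraries lay above the control libraries without overlap, each with an unadjusted p under 0.05, and the family's median log2 fold change was 0.31. Of all tested genes with a mean count of at least 1000, a level that 8 of the 9 genes exceed, 4.39% were called higher and 16.9% lay higher without overlap. Of those that also span at least 100 kb, 1.8% were called higher and 17.1% lay higher without overlap. Cacna1h (57.7 kb, a called gene), Cacna1g (68.3 kb) and Cacna1f (28.4 kb) are shorter than that span. The summed FPKM of the family was 80.5, 80.2 and 79.1 in ACS libraries, against 73.2, 71.4 and 65.3 in DCS libraries and 61.96, 63.2 and 70.1 in control libraries. The 3 ACS libraries agreed closely, at 79.9 ± 0.771 FPKM, whereas DCS libraries averaged 69.95 ± 4.17 and control libraries 65.1 ± 4.35 (SD, n = 3 each).

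Among the L-type genes, Cacna1d showed the clearest separation of all 34 channel genes. It encodes an L-type pore that opens at comparatively negative voltages and paces neurons and heart cells. In CPM, the count scaled to library depth by TMM, Cacna1d had 89.8, 85.9 and 90.7 in ACS libraries, 71.7, 68.3 and 59.6 in DCS libraries, and 63.5, 68.4 and 66.3 in control libraries. All 3 ACS libraries lay above the 6 others, and the DCS and control libraries overlapped. Cacna1d was therefore higher under ACS than in control by 0.43 ± 0.07 on the log2 scale (SE), a fold of 1.345 (adjusted p = 0.0109, edgeR). It was also higher under ACS than under DCS by 0.42 ± 0.07 (adjusted p = 0.0345, edgeR), the only 1 of the 34 genes called in that comparison. The table places Cacna1d (ENSRNOG00000013147, protein coding) on the minus strand of chromosome 16, from 6112150 to 6404957, and does not name its genome build.

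Cacna1c, the most abundant L-type pore of the brain and of heart muscle, moved less. Its CPM was 93.8, 82.8 and 86.7 in ACS libraries, 80.3, 89.5 and 82.9 in DCS libraries, and 80.3, 72.4 and 76.8 in control libraries. Both stimulated groups lay above the control libraries and overlapped each other, and DCS library 1 and control library 1 were nearly equal. The log2 fold change was 0.20 ± 0.06 for ACS against control (adjusted p = 0.115, edgeR) and 0.14 ± 0.06 for DCS against control (adjusted p = 0.695, edgeR), so neither passed the test. The L-type genes together summed to 19.2 ± 0.769 FPKM in ACS, 16.9 ± 0.735 in DCS and 15.8 ± 0.221 in control libraries (SD, n = 3 each).

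The third L-type gene, Cacna1f, encodes the pore used at photoreceptor synapses and was barely detected. It had 20, 16 and 8 counts in ACS libraries, 10, 6 and 3 in DCS libraries, and 10, 60 and 16 in control libraries. Control library 2 held the highest of these counts, and 5 of the 9 libraries were at or under the floor of 3 fragments, taken as 12 counts. The summed FPKM of 11 photoreceptor markers was 5.71 to 8.15 in ACS, 2.88 to 6.1 in DCS and 5.12 to 20.0 in control libraries, with 1 of the 8 tested markers (Rbp3) lower under ACS and none called under DCS. Their part in the Cacna1f values was not tested.

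Of the presynaptic classes, the P/Q-type gene Cacna1a was called. It encodes the channel that triggers release at most fast central synapses. Cacna1a had 91.6, 89.7 and 82.96 CPM in ACS libraries, 81.2, 73.1 and 62.8 in DCS libraries, and 67.7, 68.9 and 70.7 in control libraries. The ACS libraries lay above both other groups, and the DCS libraries spread on both sides of the tight control range. The difference between ACS and control was 0.35 ± 0.08 on the log2 scale, a fold of 1.274 (adjusted p = 0.0485, edgeR), and between ACS and DCS it was 0.28 ± 0.08 (adjusted p = 0.167, edgeR). The table gives Cacna1a (ENSRNOG00000052707, protein coding) on the plus strand of chromosome 19, from 25526751 to 25749550.

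Cacna1b, the N-type pore, had 118.1, 121.8 and 116.5 CPM in ACS libraries, 121, 107.8 and 92.96 in DCS libraries, and 93.8, 99.1 and 105.4 in control libraries. Its ACS values lay above control but within the wide DCS range, and the log2 fold change of 0.26 ± 0.09 for ACS against control did not pass the test (adjusted p = 0.121, edgeR). Cacna1e, the R-type pore, had 67.5, 64.9 and 61.0 CPM in ACS libraries, 57.6, 58.4 and 46.4 in DCS libraries, and 54.3, 51.3 and 55.6 in control libraries. The ACS libraries lay above both other groups for this gene, by 0.26 ± 0.09 on the log2 scale against control (adjusted p = 0.118, edgeR). In sum the 3 presynaptic pores reached 29.3 ± 0.984 FPKM in ACS, 25.6 ± 2.93 in DCS and 24.3 ± 1.08 in control libraries (SD, n = 3 each).

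The T-type class had all 3 of its genes higher under ACS than in both other groups without overlap, and Cacna1h was called against control. It is the most abundant calcium channel pore of these cultures and is blocked by low nickel. Its CPM was 133.0, 137.6 and 135.1 in ACS libraries, 122.4, 119.3 and 113.7 in DCS libraries, and 101.6, 100.7 and 120.9 in control libraries. Control library 3 lay among the DCS libraries, well above the other controls. The log2 fold change was 0.33 ± 0.07 for ACS against control, a fold of 1.255 (adjusted p = 0.0312, edgeR), and 0.19 ± 0.07 for ACS against DCS (adjusted p = 0.249, edgeR). The table gives Cacna1h (ENSRNOG00000033893, protein coding) on the minus strand of chromosome 10, from 14730941 to 14788617, where Tpsg1 overlaps it on the other strand with 0.39% of its count.

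Cacna1g, the T-type pore of thalamic bursting, had 68.8, 66.5 and 68.4 CPM in ACS libraries, 56.1, 57.5 and 51.9 in DCS libraries, and 42.8, 51.3 and 59.9 in control libraries. The ACS values were tight and the control values wide, so a log2 fold change of 0.40 ± 0.10 against control, nearly that of Cacna1d, missed the threshold (adjusted p = 0.0571, edgeR). Cacna1i, listed in the table as a processed transcript, had 45.2, 49.1 and 47.5 CPM in ACS libraries, 45.1, 39.9 and 41.1 in DCS libraries, and 35.0, 36.7 and 42.6 in control libraries. Its lowest ACS library and highest DCS library were nearly equal, and its log2 fold change against control was 0.31 ± 0.08 (adjusted p = 0.0639, edgeR). The T-type genes summed to 31.4 ± 0.577 FPKM in ACS, 27.5 ± 0.809 in DCS and 25.0 ± 3.15 in control libraries (SD, n = 3 each).

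Single libraries shaped the spread of this family. Control library 3 was the highest control for 6 of the 9 Cav α1 genes, and DCS library 3 was the lowest DCS library for 7 of 9. Over all 34 channel genes, control library 3 was the highest control for 12 and the lowest for 13. DCS library 3 was the lowest DCS library for 17 of the 34. Without control library 3, Cacna1g, Cacna1i, Cacna2d2, Cacnb1 and Cacnb3 joined Cacna1d and Cacna1h among the genes called higher under ACS than in control (edgeR), and Cacna1a was not called at an adjusted p of 0.0513.

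**Figure D2:**
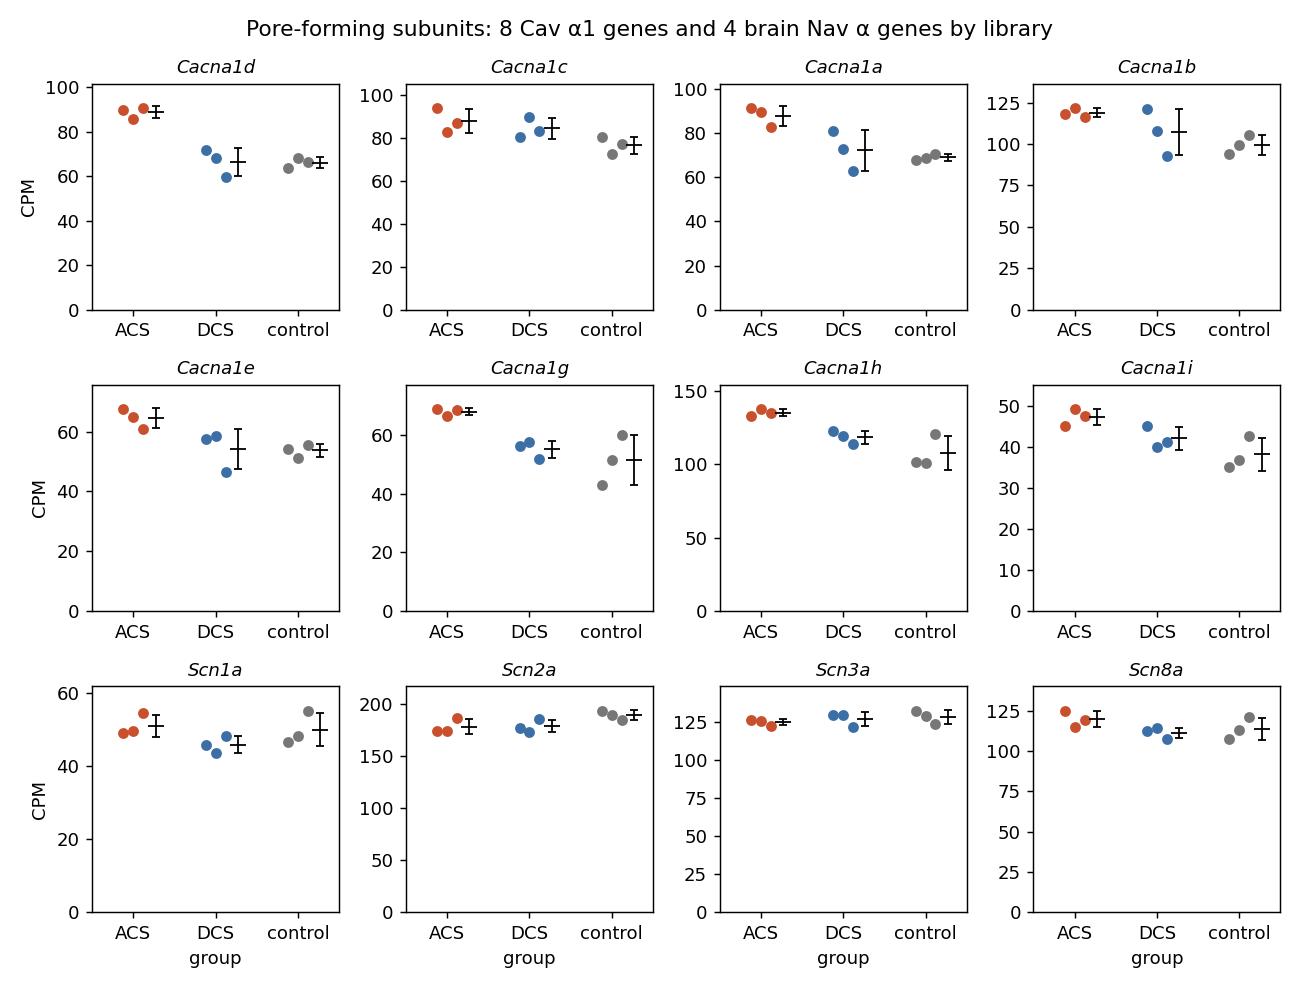
CPM of 8 Cav α1 genes and 4 brain Nav α genes in ACS, DCS and control libraries, with a point for each library and a black mark for the mean ± SD (n = 3). In the 8 calcium channel panels the ACS points lie above all control points (Cacna1d 85.9 to 90.7 against 63.5 to 68.4), while in the 4 sodium channel panels the ACS and control points overlap.

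The start regions of the 2 called genes with a RefSeq promoter window are shown because they can be set beside those of sodium channel genes that did not pass the test. RefSeq windows on build GRCr8, each from 250 bases before to 50 after a gene start, matched 23 of the 34 genes with 26 windows. They were searched on both strands for GCGNGGGCG (the site of Egr factors), TGACGTCA and its core TGACG (the cyclic AMP response element), TGANTCA (the AP-1 site) and the MEF2 site (CTA and TAG with any 4 bases between), all bound by factors known from activity-dependent transcription. TGACG also matches within TGACGTCA. The Egr letters were in 7 of the 26 windows (26.9%), against 4.98% of all 33469 promoter windows. The windows of these channel genes are richer in G and C, with a median of 63.3% against 51.7% over all windows, and the Egr letters are themselves G and C apart from N. TGACG was in 4 of 26 windows (15.4%), against 21.2% of all, AP-1 in 1 of 26, against 7.33%, and TGACGTCA and the MEF2 site in 0 of 26, against 1.83% and 3.84%. The 250 bases before the starts of Cacna1d (chr16:5527550-5527799, minus strand, 88.8% G and C) and Cacna1a (chr19:40650469-40650718, minus strand, 76.8% G and C) read as follows, 5′ to 3′, with a motif match in capitals.
Cacna1d: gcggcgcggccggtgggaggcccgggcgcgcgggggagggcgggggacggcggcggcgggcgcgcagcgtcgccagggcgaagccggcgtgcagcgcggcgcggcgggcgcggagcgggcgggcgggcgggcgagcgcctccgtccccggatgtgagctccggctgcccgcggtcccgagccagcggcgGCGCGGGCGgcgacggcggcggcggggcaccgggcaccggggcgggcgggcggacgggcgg
Cacna1a: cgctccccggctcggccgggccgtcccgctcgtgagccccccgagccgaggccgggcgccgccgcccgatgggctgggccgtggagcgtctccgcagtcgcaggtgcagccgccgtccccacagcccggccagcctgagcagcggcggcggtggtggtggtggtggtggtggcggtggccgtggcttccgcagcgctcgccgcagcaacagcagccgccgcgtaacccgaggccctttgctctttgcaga
The capitals in Cacna1d mark an Egr match that begins 61 bases before the start, and none of these letters was found in the window of Cacna1a. The Cacna1a window continues with ATG directly at the start, and the Cacna1d window continues with CATG. Either start may thus be of the coding sequence, and neither window need hold the promoter. Egr matches also stood in the windows of Cacna1b, Cacna2d2 and Cacnb3, and as well in those of Cacna2d1, Scn7a and Scn8a, whose ACS and control libraries overlapped. A match is a description of the letters and not evidence of binding.

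The auxiliary subunits were divided. Of the 3 α2δ genes, a family that includes the targets of gabapentin, Cacna2d2 lay higher under ACS with 46.7, 45.7 and 42.5 CPM in ACS libraries, 38.7, 38.9 and 30.95 in DCS libraries, and 31.6, 32.9 and 38.6 in control libraries. Its ACS libraries did not overlap those of either other group, and the log2 fold change against control was 0.39 ± 0.10 (adjusted p = 0.0667, edgeR). Cacna2d1, which is several times more abundant, had 214.2, 208.4 and 221.6 CPM in ACS libraries, 208.8, 193.7 and 188.2 in DCS libraries, and 226.8, 215.1 and 205.7 in control libraries. All 3 groups overlapped in Cacna2d1, at a log2 fold change of -0.01 ± 0.05 for ACS and -0.13 ± 0.05 for DCS against control (adjusted p = 0.954 and 0.692, edgeR). Cacna2d3 had a log2 fold change of 0.30 ± 0.15 for ACS against control without overlap (adjusted p = 0.271, edgeR).

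Of the 4 Cav β genes, whose products bind α1 inside the cell and carry it to the membrane, the leading pair lay higher under ACS. Cacnb3 had 243.7, 254.4 and 264.3 CPM in ACS libraries, 235.1, 224.4 and 230.6 in DCS libraries, and 202.7, 199.5 and 238.9 in control libraries. Cacnb1 had 87.5, 85.7 and 91.0 CPM in ACS libraries, 81.4, 77.6 and 78.9 in DCS libraries, and 72.3, 73.6 and 81.8 in control libraries. In both genes the ACS libraries lay above all others and control library 3 was the highest control. The log2 fold change for ACS against control was 0.25 ± 0.07 for Cacnb3 (adjusted p = 0.0676, edgeR) and 0.21 ± 0.06 for Cacnb1 (adjusted p = 0.0602, edgeR). Cacnb4 and Cacnb2 had log2 fold changes of 0.10 ± 0.08 and -0.04 ± 0.11 with overlapping libraries. The family summed to 131.5 ± 4.97 FPKM in ACS, 121.6 ± 2.24 in DCS and 113.6 ± 10.7 in control libraries (SD, n = 3 each).

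Among the γ genes only Cacng4 had groups without overlap. It had 417.3, 399.8 and 398.7 CPM in ACS libraries, 374.7, 362.0 and 347.7 in DCS libraries, and 386.6, 378.0 and 377.0 in control libraries. The 3 groups followed each other without overlap, with ACS highest and DCS lowest. The differences were small, at 0.09 ± 0.04 on the log2 scale for ACS against control, -0.07 ± 0.04 for DCS against control and 0.17 ± 0.04 for ACS against DCS (adjusted p = 0.223, 0.702 and 0.0953, edgeR). The other TARP genes Cacng2 (stargazin), Cacng3, Cacng5, Cacng7 and Cacng8 had log2 fold changes from -0.06 to 0.31 for ACS against control, none called, and Cacng6, a γ gene known from skeletal muscle, had a mean count of 21.7. The skeletal muscle genes Cacng1, Cacna1s and Scn4a were under the mean count, and the summed FPKM of 6 muscle markers was 1.11 to 1.39 in ACS, 1.21 to 2.39 in DCS and 1.4 to 1.59 in control libraries, with Myog at 0.

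The sodium channel genes of the brain showed no such shift. Scn2a, the main sodium channel pore of young excitatory neurons, had 174.2, 173.7 and 185.9 CPM in ACS libraries, 177.1, 173.1 and 184.9 in DCS libraries, and 193.4, 188.9 and 184.0 in control libraries. The groups overlapped, although the 2 highest libraries were controls. The log2 fold change was -0.09 ± 0.04 for ACS and -0.08 ± 0.04 for DCS against control (adjusted p = 0.305 and 0.705, edgeR). Scn3a, an embryonic pore, had a log2 fold change of -0.04 ± 0.04, Scn8a, the pore of the mature axon initial segment, 0.07 ± 0.06, and Scn1a, the main pore of fast inhibitory neurons, 0.03 ± 0.08 for ACS against control, none called. These 4 genes summed to 57.7 ± 0.966 FPKM in ACS, 57.4 ± 0.246 in DCS and 59.0 ± 0.735 in control libraries (SD, n = 3 each). A p above the threshold does not show that levels were equal, and the standard errors of these 4 genes were 0.04 to 0.08, against 0.07 to 0.08 for the 3 called calcium channel genes. The difference between the 2 families was not tested as such. The 250 bases before the starts of Scn2a (GRCr8 chr3:70710706-70710955, plus strand, 39.6% G and C) and Scn3a (GRCr8 chr3:70666199-70666448, minus strand, 41.6% G and C) are shown as the counterparts of the calcium channel starts above, with the AP-1 match of Scn3a in capitals, 61 bases before its start.
Scn2a: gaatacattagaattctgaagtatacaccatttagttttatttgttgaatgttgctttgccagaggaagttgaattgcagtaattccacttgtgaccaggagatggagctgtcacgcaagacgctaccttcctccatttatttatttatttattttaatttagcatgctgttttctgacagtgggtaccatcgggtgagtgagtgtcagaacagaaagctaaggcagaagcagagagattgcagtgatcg
Scn3a: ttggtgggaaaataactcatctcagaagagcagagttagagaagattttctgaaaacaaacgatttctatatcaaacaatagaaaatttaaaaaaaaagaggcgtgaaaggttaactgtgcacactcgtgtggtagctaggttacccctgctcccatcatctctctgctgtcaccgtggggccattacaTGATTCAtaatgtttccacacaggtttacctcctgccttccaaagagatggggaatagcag
No match stood in Scn2a. The median share of G and C was 62.8% over 6 Cav α1 windows, 77.0% over 5 α2δ, 71.7% over 3 Cav β and 61.7% over 5 γ windows, against 56.0% over 5 Nav α and 54.5% over 2 Nav β windows. Single windows crossed this order, with 84.7% in Scn8a and 51.7% in Cacna1c.

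**Figure D3:**
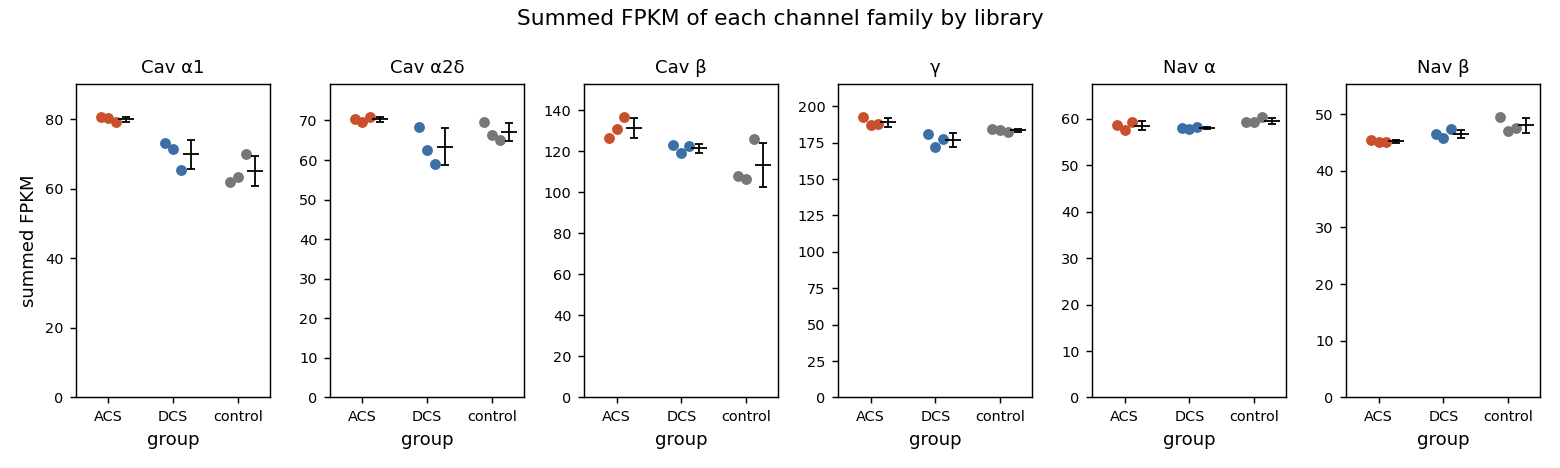
Summed FPKM of each channel family in ACS, DCS and control libraries, with a point for each library and a black mark for the mean ± SD (n = 3). The Cav α1 sums lie at 79.1 to 80.5 in ACS, above 65.3 to 73.2 in DCS and 61.96 to 70.1 in control libraries, while the Nav α means lie at 58.6, 58.1 and 59.7 in ACS, DCS and control libraries.

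Scn9a, a pore best known from pain-sensing nerve cells, was the exception among the sodium channel genes, at a low level. It had 4.7, 5.36 and 4.12 CPM in ACS libraries, 5.0, 4.08 and 4.08 in DCS libraries, and 3.2, 3.47 and 2.47 in control libraries. Both stimulated groups lay above the control libraries and overlapped each other. The log2 fold change was 0.63 ± 0.19 for ACS against control (adjusted p = 0.0878, edgeR) and 0.53 ± 0.19 for DCS against control (adjusted p = 0.692, edgeR), and the 2 comparisons share their control libraries. In the table Scn9a lies on chromosome 3 in a row of 5 sodium channel genes, in the order Scn3a, Scn2a, Scn1a, Scn9a and Scn7a, whose levels fall in another order, from 19.9 FPKM (Scn2a) to 0.182 (Scn7a). Scn7a, a sodium-sensing relative of the voltage-gated pores, had a mean count of 55.6 and a log2 fold change of 0.35 ± 0.33 for ACS against control.

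None of the Nav β genes passed the test. Scn3b had 142.6, 134.2 and 142.7 CPM in ACS libraries, 140.8, 128.6 and 143.3 in DCS libraries, and 153.7, 144.6 and 146.2 in control libraries. All stimulated libraries lay below all control libraries, and the ACS and DCS libraries overlapped. The log2 fold change was -0.08 ± 0.05 for ACS and -0.11 ± 0.05 for DCS against control (adjusted p = 0.398 and 0.695, edgeR). Scn2b and Scn4b had log2 fold changes of -0.04 and -0.09 for ACS against control with overlapping libraries.

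**Figure D4:**
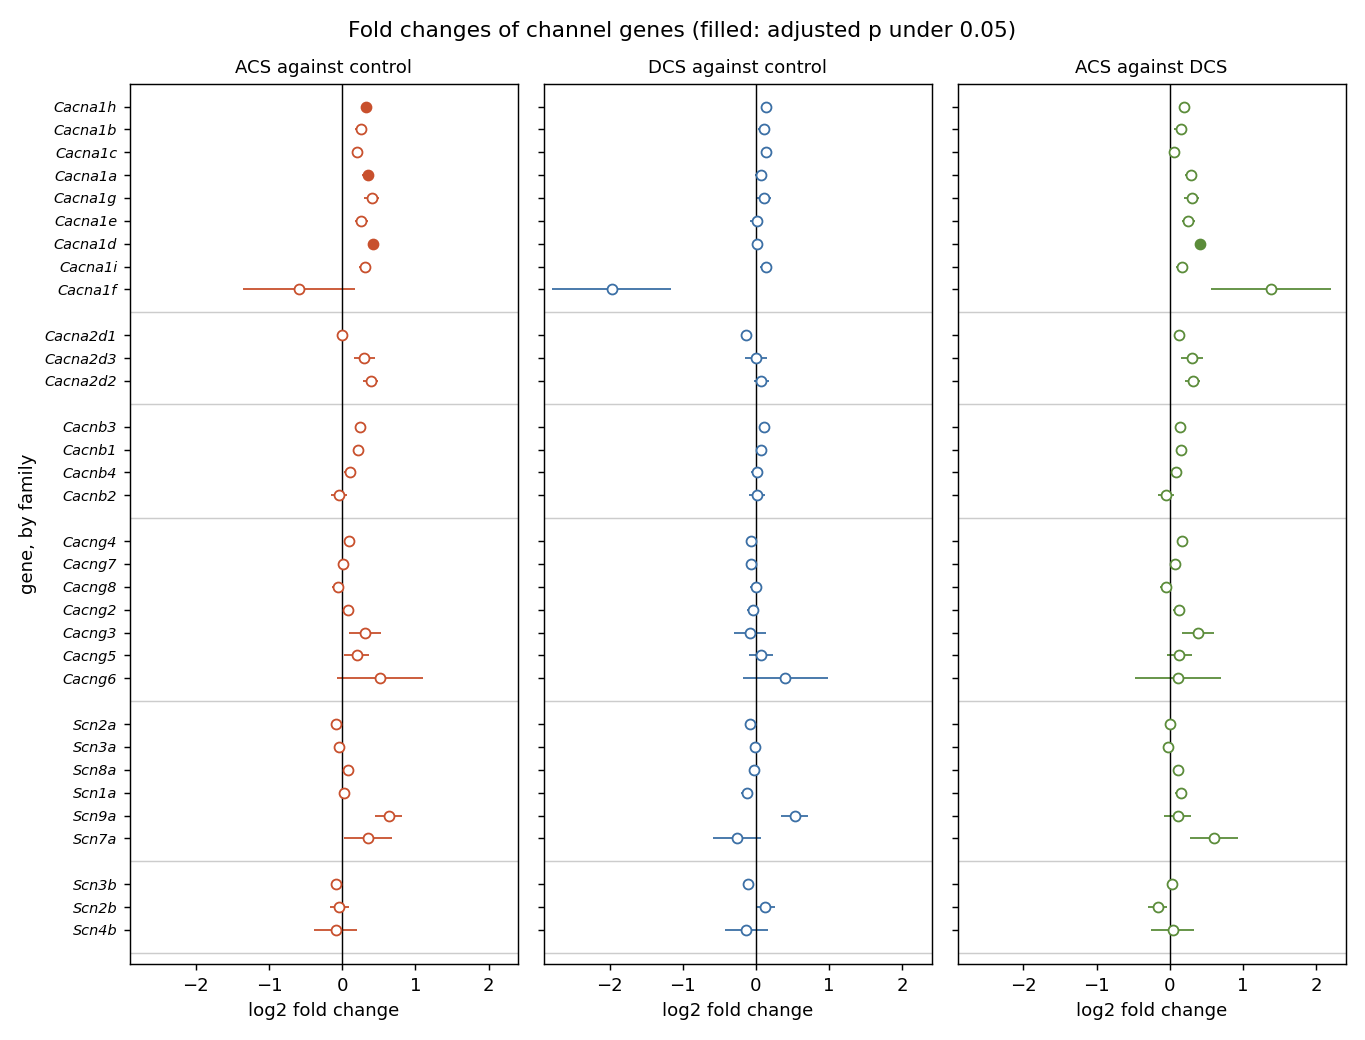
Log2 fold change ± SE of the channel genes, all but 2 of the 34, for ACS against control, DCS against control and ACS against DCS (n = 3 libraries each), by family from Cav α1 at the top to Nav β at the bottom, with filled points at an adjusted p under 0.05. The filled points are Cacna1h, Cacna1a and Cacna1d in the first panel, none in the second and Cacna1d in the third, at 0.42.

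DCS moved the channel genes less. Of the 34 genes, 0 were called in either direction against control by edgeR's quasi-likelihood test, as were 0 by DESeq2 and by limma. The edgeR test called 0.00614% of all tested genes higher and 0.00614% lower, and DESeq2 called 0.166% higher and 0.0676% lower. At an unadjusted p under 0.05, 1 gene was higher (Scn9a) and 2 were lower (Cacna1f and Cacna2d1), against 4.03% of all tested genes higher and 3.05% lower. The DCS libraries lay above the control libraries without overlap in 2 genes (Cacna1c and Scn9a), which is 5.88% against 5.59% of all tested genes, and below in 2 (Cacng4 and Scn3b), against 5.51%. These shares are near those of all genes. The median log2 fold change was 0.01 over the 34 genes and 0.10 over the 9 Cav α1 genes, of which 8 were above 0. Without single libraries that number lay between 5 and 8 and the median between 0.01 and 0.15.

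Set directly against DCS, ACS had 1 of the 34 genes higher (2.94%, Cacna1d, against 0.51% of all tested genes called higher) and 0 lower (against 0.123% called lower). The ACS libraries lay above the DCS libraries without overlap in 13 genes, which is 38.2% against 11.2% of all tested genes, and below in none, against 10.2%. Of all tested genes with a mean count of at least 1000, 13.9% lay higher without overlap and 12.7% lower. Of those that also span at least 100 kb, 18.3% lay higher without overlap and 7.71% lower. Some of the 34 genes fall under that count or span. The 13 genes were Cacna1a, Cacna1d, Cacna1e, Cacna1g, Cacna1h, Cacna1i, Cacna2d2, Cacnb1, Cacnb3, Cacng4, Scn1a, Scn7a and Scn8a. The median log2 fold change over the 34 genes was 0.14, with 28 above 0 (82.4%). Above 0 were 49.4% of all tested genes and 59.7% of those with that count and span. DESeq2 called 3 of the 34 genes higher, against 2.5% of all tested genes. At an unadjusted p under 0.05, 9 were higher and 0 lower, against 7.22% of all tested genes higher and 6.66% lower. The call of Cacna1d against DCS was lost without any 1 ACS library, control library 1, control library 2 or DCS library 2, with an adjusted p between 0.0543 and 0.126 (edgeR), and its log2 fold change stayed between 0.34 and 0.47.

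Genes whose products anchor, regulate or accompany these channels, or move calcium across other membranes, were followed in the same fit as a list of 44 tested entries in 8 role groups. Between ACS and control 1 was called higher and 0 lower, and at an unadjusted p under 0.05 there were 11 higher and 0 lower, beside the shares of all tested genes given above (2.83% and 1.33% called, 10.8% and 10% at an unadjusted p). The ACS libraries lay above the control libraries without overlap in 14 of the 44 (31.8%, against 14% of all tested genes) and below in 2 (4.55%, against 13%), so the partner list had a share without overlap nearer to that of the channel genes than to that of all genes. DESeq2 called 6 of the 44 higher, where it called 5.77% of all tested genes higher. The called gene was Sptbn4, the βIV spectrin of the axon initial segment, with 0.28 on the log2 scale (adjusted p = 0.0277, edgeR). It was not called without any 1 ACS library or without control library 1 or 2, nor by limma, and without control library 3 the list had 4 calls. The other genes in the role group of Sptbn4 lay between 0.02 and 0.17, among them Ank2 (0.02), Ank3 (0.08), Sptan1 (0.08) and Nfasc (0.13), none called. Of the 6 genes listed for the presynaptic release site, 5 lay above 0 and 1 below, with a median of 0.18, and none was called. The 4 with the highest FPKM were Unc13a at 0.28, Stx1a at 0.24, Rims1 at 0.13 and Syt1 at 0.04. The calcium pumps and exchangers had a median of 0.01, with Atp2a2 at 0.09, Atp2b1 at -0.08 and Slc8a1 at -0.05. The store release channels had a median of 0.05, with Itpr1 at -0.07, Ryr2 at 0.04, Ryr3 at 0.29 and Itpr2 at -0.09.

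The intracellular Nav partners of the fibroblast growth factor homologous group, Fgf11, Fgf12, Fgf13 and Fgf14, lay between 0.02 and 0.17 for ACS against control. Calm2, a calmodulin gene whose product binds both channel types, present as 2 entries that may share reads, had -0.01 and -0.06. Of the 8 tested entries for calmodulin and calcium-binding regulators, 4 lay above 0 and 4 below, with a median of 0.04. The RGK GTPases, which reduce calcium current, had a median of -0.05, and the leak channel genes Nalcn, Unc79 and Unc80 had 0.21, -0.02 and 0.15. None of these was called. Between DCS and control 0 of the 44 entries were called by edgeR, by DESeq2 or by limma, and 0 had an unadjusted p under 0.05. Between ACS and DCS 0 were called by edgeR and 2 by DESeq2, where DESeq2 called 2.5% of all tested genes higher. At an unadjusted p under 0.05, 6 were higher and 1 lower, against 7.22% and 6.66% of all tested genes. The ACS libraries lay above the DCS libraries without overlap in 14 of the 44 (31.8%, against 11.2% of all tested genes) and below in 3 (6.82%, against 10.2%).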

How the data were processed

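RNA of 9 libraries was analysed, 3 per group, grouped as the sample labels give them, and 0 value columns were left unmapped. The authors aligned reads with HISAT2 2.0.4 and quantified them with StringTie 1.3.4d, per the submitters' processing notes, which also name cutadapt 1.9 and UMI-tools without a role; the methods name fastp for trimming. The genome build is not named in the table. The deposited FPKM values were scaled by the authors to exon length and library depth. The deposited estimated counts, also made by the authors, are whole numbers, and 34.1% of those from 1 to 15 are 4, 8 or 12 where an even spread gives 20%, so a fragment may add 4, and the fit was also run on counts divided by 4.

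Counts were tested with edgeR 4.0.16 (R 4.3.3) over all 9 libraries, with TMM scaling, filterByExpr (minimum count 10, minimum total 15), which kept 16284 genes including all 34 channel genes, and a quasi-likelihood F test adjusted by Benjamini-Hochberg over those genes. A call is an adjusted p under 0.05. The standard error is the log2 fold change over the square root of F. The fit was tested on simulated data. DESeq2 1.42.0 and limma 3.58.1, with a pseudocount of 0.1 or 1 on FPKM, were alternatives, as were the 6 libraries of a comparison alone, other filters, median-of-ratios scaling, the replicate number as a block and leaving out each library. Comparisons with control share the control libraries. Values per library are given for called genes, for the most abundant gene of each family and for genes with an unadjusted p under 0.05 and groups without overlap. Partner genes are named where called or as up to 4 of a role group by FPKM. Some genes of the lists are not reported here by name. The genes, lists and motifs were chosen with earlier results of these data known.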

Additional observations from a re-analysis of the deposited data

How the results depend on the processing

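The log2 fold changes of the 13 channel genes with an unadjusted p under 0.05 between ACS and control kept their sign in every alternative, while some of the others, Cacna2d1 and Cacna1f included, changed sign when a library was left out. The count of channel genes called between ACS and control (3) was 12 by DESeq2, 1 by limma at either pseudocount, 1 with the replicate block, and 0 to 7 with each library left out. Between ACS and DCS the count (1) was 3 by DESeq2 and 0 by limma at either pseudocount, in the 6 libraries alone and with the replicate block, and 0 to 1 with each library left out. Of the partner genes, 1 was called between ACS and control, 6 by DESeq2, 2 with counts divided by 4, 0 by limma at either pseudocount, 0 with the replicate block, and 0 to 4 with each library left out, and between ACS and DCS 0 were called and 2 by DESeq2. Between DCS and control both counts were 0 throughout. The count without a low-count filter was 2, and a minimum mean FPKM of 1 or counts divided by 4 gave 4 channel genes between ACS and control. The causes were not tested. Shares of all tested genes are given above only for DESeq2 and, for ACS against control, for limma with a pseudocount of 0.1. The other counts, of channel and partner genes alike, only describe how stable the calls were. The minimum mean FPKM of 1 was not run for partner genes. Deviations of same-numbered libraries correlated with r from -0.0532 to 0.0631. These values show no pairing by replicate number but cannot exclude it, as no source used here states how replicates were made. With the block, only Cacna1d was called among the channel genes between ACS and control. With 6 residual degrees of freedom, small changes of single genes can be missed, and genes under about 60 mean counts had standard errors of 0.29 or more.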
